A study of Homo sapiens with 12 samples.

Results

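The interaction of 4-thiouridine (4SU) and UVA light is the amount by which ribosome footprints on a gene after combined treatment depart from what each treatment alone would add up to. It was computed for each gene as the UVA effect in cells carrying 4SU minus the UVA effect in cells without it, on the scale of log2(RPKM + 0.5). RPKM scales the reads of a gene by transcript length and by library total, and a sum of log2 effects is a product of folds. Of the 19580 genes in the table, 11510 had at least 1 RPKM in at least 3 libraries and were tested. A gene is called above the sum where the interaction is positive and below the sum where it is negative, in each case with adjusted p under 0.05.

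The cells were wild-type HAP1, a human line of near-haploid cells that descends from KBM-7, so every group stands for 1 cell line. Untreated cells received neither agent, 4SU cells received 5 uM 4SU for 18 h, and UVA cells received 6 kJ/m2 of UVA and recovered for 30 min. The 4SU+UVA cells received 5 uM 4SU for 18 h and then the same light and recovery. Each of the 4 groups held 3 biological replicates, and whether these came from separate cultures is not stated further, so p-values measure the spread between these samples.

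4SU is a uridine analogue that cells build into newly made RNA. UVA excites the incorporated base, which can then bond covalently to a protein lying against it, and a ribosome that meets such an RNA-protein crosslink can stall. Neither agent alone is designed to make these bonds. The interaction takes in any departure of the combination from the single effects, and whether such bonds lie behind a departure was not tested. Ribosomes protect the stretch of mRNA they cover from RNase I, and the protected footprints are counted per gene. A footprint density rises with more mRNA as well as with more ribosomes on each, and these libraries cannot tell the 2 apart, nor fewer cells from less RNA per cell.

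The table lists Ensembl identifiers, and 0 of the 19580 could be matched to a gene symbol with the reference used here. Genes are therefore named by identifier, 2 above and 2 below the sum, and were sorted by transcript length, density and single effects in place of function. For the same reason the cell line could not be checked against marker genes. Depth was 1899854 to 5832366 reads per library, with the shallowest library in the 4SU+UVA group (replicate 2). Replicates of the same group had Pearson correlations of 0.982 to 0.991 over the genes tested, on the log2 scale.

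At 2857 genes, 24.8% of those tested, the combination departed from the sum of its parts (limma, 12 libraries, adjusted p under 0.05). Footprints lay above the sum at 1233 genes (10.7%) and below it at 1624 (14.1%). The excess was at least 2-fold at 234 genes (2.03%) and the shortfall at least 2-fold at 182 (1.58%). The filter favoured the side above, since 316 of the genes tested reached 1 RPKM in 3 libraries only with the help of 4SU+UVA libraries. Of these 316, 38 are among the 1233 above the sum and 0 are below it, so those 38 calls are partly selected. The median interaction was 0.68 over the genes above the sum and -0.62 over those below it, beside 0.02 over all genes tested. The tail above the sum was the longer, reaching 5.74, whereas the lowest called value was -1.82. When each library was centred on its median gene, the split became 1435 above and 1409 below. It was 1288 and 1648 under quantile normalisation, with more genes below as in the main count. Which side holds more genes thus changed with median centring only, and there by a narrow margin.

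At most of the called genes the 4SU+UVA libraries stood apart from all others. Of the 1233 genes above the sum, 1088 had all 3 of these libraries higher than each of the other 9, and of the 1624 below, 1358 had all 3 lower. Over all genes tested the shares with such a gap were 23.4% above and 15.6% below. Since the contrast itself uses these libraries, the counts describe the called genes and support nothing further. All 3 combined libraries lay on the called side of the additive level at every one of the 2857 genes. The direction was also the same for every called gene when the sum was taken in RPKM instead of log2. Both outcomes are favoured by the choice of genes from these same libraries and support nothing further.

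The genes above the sum gained footprint reads mainly in the 4SU+UVA libraries. Together they held 18.7 ± 0.158% of reads in untreated cells, 18.9 ± 0.614% with 4SU and 17 ± 0.194% with UVA, but 28.7 ± 1.46% with 4SU+UVA (SD, n = 3 each). In the 3 combined libraries the share was 27.6%, 30.3% and 28.1%, above every other library, of which the highest held 19.4%. The genes below the sum went from 33.4 ± 0.0762% of reads in untreated cells, 31.5 ± 1.29% with 4SU and 33.9 ± 0.245% with UVA to 20.3 ± 0.799% with 4SU+UVA. Their 3 combined libraries held 20.8%, 19.3% and 20.6%, and the lowest of the other 9 held 30.3%. The genes not called kept between 47.5% and 51.3% of reads in all 12 libraries. These shares were summed over genes chosen by the interaction and carry no test.

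**Figure D1:**
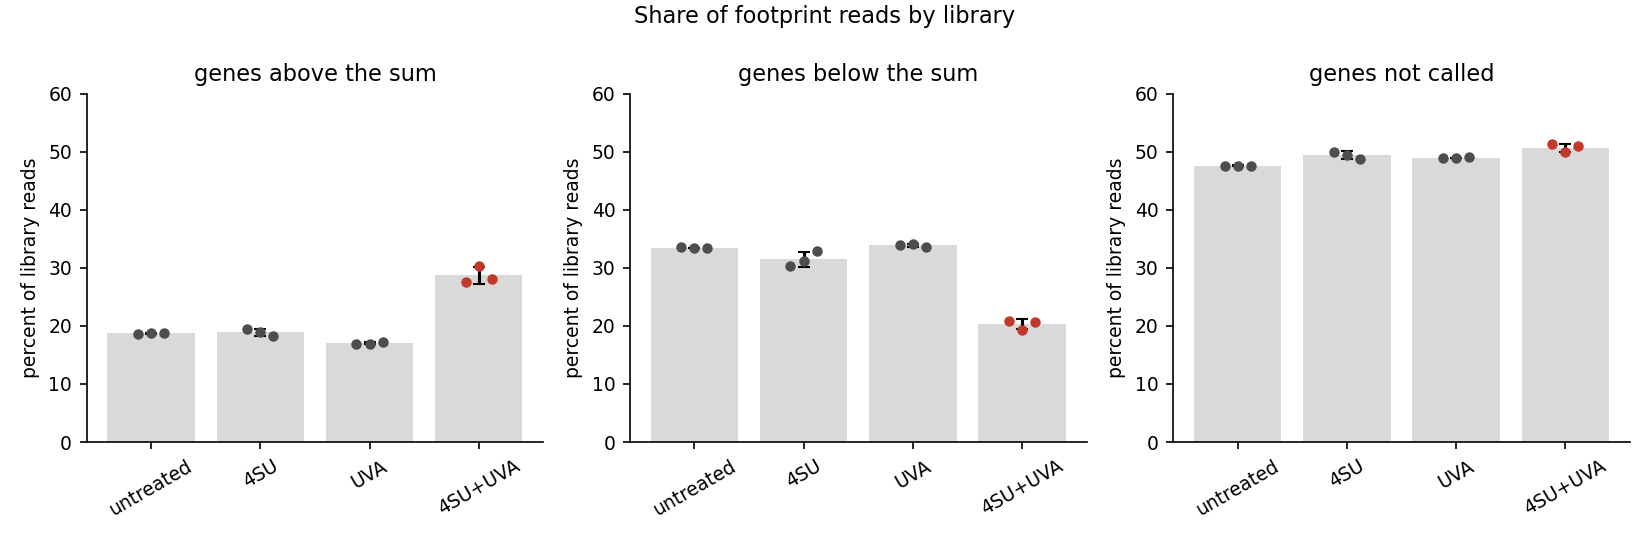
Share of all footprint reads of a library (percent) held by the genes above the sum, below the sum and not called; bars are group means, error bars SD (n = 3) and points single libraries, with 4SU+UVA in red. The combined treatment stands at 28.7% for genes above the sum and at 20.3% for genes below it, while the other 3 groups lie between 17% and 18.9% and between 31.5% and 33.9%.

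Footprints on ENSG00000120738.8, read from a transcript of 3137 nt, showed the highest interaction of all genes named by the rule. Its density was 3.03, 3.87 and 3.66 RPKM in the untreated libraries, 3.35, 3.3 and 3.11 RPKM with 4SU, and 5.32, 4.17 and 4.84 RPKM with UVA. In the 4SU+UVA libraries it was 179, 318 and 318 RPKM. The combined libraries were far above the other 9, which lay between 3.03 and 5.32 RPKM. The level that the single effects add up to was 4.42 RPKM, against a measured mean of 272 ± 80.6 RPKM (SD, n = 3). The interaction was 5.74 (SE 0.26, limma adjusted p = 1.2e-08), a 53.4-fold excess on that scale. Counting is not the limit here, since the 3 combined libraries held 3095, 1895 and 3041 reads, although the 9 others held only 36 to 71 each.

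ENSG00000177606.8, of 3257 nt, behaved alike but already stood somewhat higher after UVA. It lay at 6.49, 5 and 6.63 RPKM in untreated cells, at 5.77, 7.04 and 5.31 RPKM with 4SU, and at 12.3, 9.96 and 9.25 RPKM with UVA. With 4SU+UVA it lay at 251, 379 and 418 RPKM. All 3 UVA libraries were above all 6 libraries without light, yet that single effect did not pass (log2 0.75, SE 0.17, limma adjusted p = 0.087). The additive level was 10.4 RPKM and the interaction 4.97 (SE 0.25, limma adjusted p = 1.6e-08), a 31.3-fold excess. In both genes the lowest of the combined libraries was replicate 1.

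On the other side, ENSG00000153201.16, with a transcript of 11708 nt, gave the lowest interaction among the genes that met the naming rule. It held 22.3, 21.9 and 21.7 RPKM in untreated cells and 22.5, 22.6 and 21.9 RPKM with UVA. The 4SU libraries were more scattered, at 15.7, 18.3 and 22.4 RPKM, so that 4SU replicate 3 reached the untreated level and the other 2 did not. With 4SU+UVA the density was 5.13, 4.45 and 5.69 RPKM, below all of the other 9. The additive level was 18.9 RPKM, and the interaction was -1.8 (SE 0.17, limma adjusted p = 3.9e-06), a 3.49-fold shortfall.

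The next lowest, ENSG00000111530.13, also came from a long transcript, of 11176 nt. It lay at 57.4, 55.1 and 57.3 RPKM untreated, at 54.5, 59.4 and 58.7 RPKM with UVA, and at 43.3, 47.7 and 53.6 RPKM with 4SU, where replicate 3 was again the highest. The 4SU+UVA libraries held 14.4, 14.2 and 13.3 RPKM, against an additive level of 48.8 RPKM. The interaction was -1.77 (SE 0.12, limma adjusted p = 1.5e-07), a 3.41-fold shortfall. The interactions of the 2 genes below the sum differed by less than their standard errors.

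**Figure D2:**
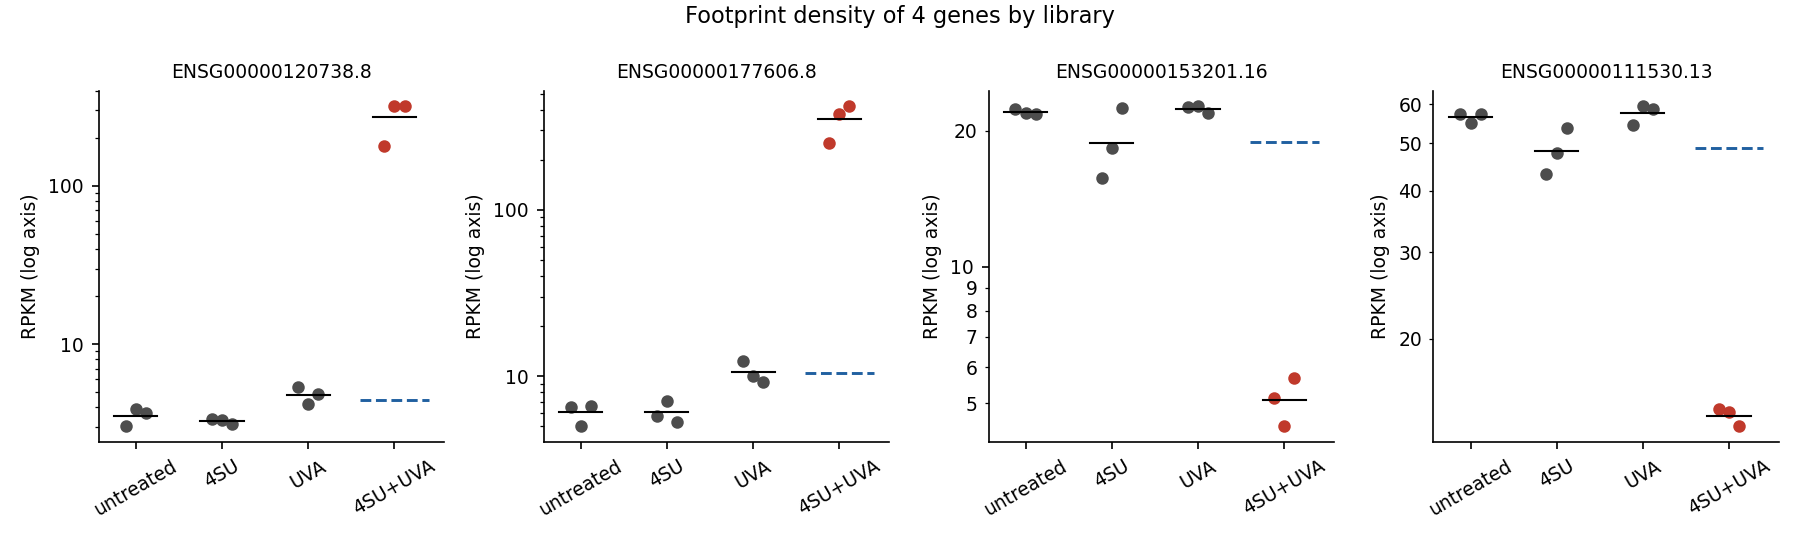
Footprint density (RPKM, log axis) of the 2 genes highest and the 2 lowest in interaction, by group; points are single libraries, black lines group means, and the dashed line is the level that the single effects add up to. The 4SU+UVA libraries (red) lie at 179 to 418 RPKM for the first 2 genes, against additive levels of 4.42 and 10.4, and at 4.45 to 14.4 RPKM for the other 2, against 18.9 and 48.8.

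Nearly all interactions took the form of a UVA effect that passed only in cells carrying 4SU. In those cells light changed 5062 genes (44%), 2877 upward (25%) and 2185 downward (19%). In cells without 4SU it changed 75 (0.652%), 32 upward (0.278%) and 43 downward (0.374%; limma, n = 3 per group). Of the genes above the sum, 1147 of 1233 rose with UVA in 4SU cells and did not pass without 4SU. Of those below the sum, 1557 of 1624 fell with UVA in 4SU cells and did not pass without 4SU. Their median UVA effects in cells without 4SU were -0.01 and 0.04, against 0.65 and -0.57 in cells with it. All 4 groups enter the interaction and 2 of them enter each UVA effect, so this sorting describes the shape of the calls and is no separate evidence for them. The remaining forms were rare, and no UVA effect passed in either background at 40 genes above the sum and 64 below. Light raised 4 genes above the sum in both backgrounds, more strongly with 4SU.

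Light acted in opposite directions in the 2 backgrounds at 40 of these genes, 39 of them above the sum. These 39 fell with UVA alone and rose with UVA after 4SU, with median effects of -0.45 and 0.52. They came from short transcripts that are densely covered, with a median length of 503 nt and a median density of 3540 RPKM, beside 2620 nt and 10.8 RPKM over all genes tested. Their summed share of reads, which the choice of genes fixes in its order, was 7.33%, 7.4% and 7.37% in untreated cells and 7.57%, 7.6% and 7.13% after 4SU. It was 5.76%, 5.48% and 5.6% after UVA, and 9.87%, 10.7% and 10.7% after both. The UVA libraries lay below and the 4SU+UVA libraries above those of every other group, whereas the 4SU libraries spanned the untreated ones. This carries no test for genes chosen by these effects. Under quantile normalisation 10 genes took this form and without the variance trend 16, so the number rests on the setting. The single gene of the reverse kind, from a transcript of 1560 nt, rose with UVA alone (log2 0.5) and fell with UVA after 4SU (log2 -0.31).

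**Figure D3:**
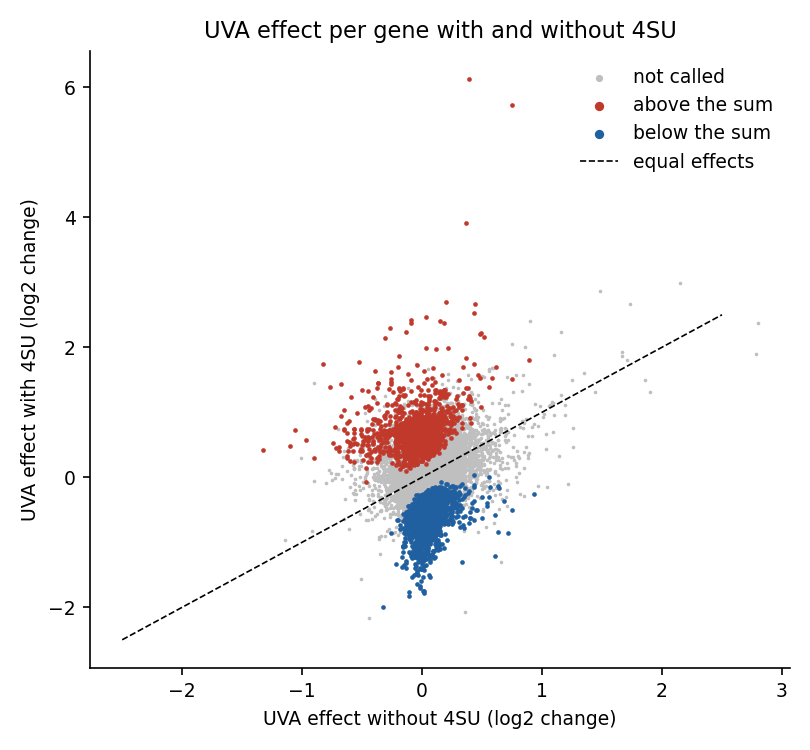
UVA effect in cells carrying 4SU (vertical, log2 change) against the UVA effect in cells without 4SU (horizontal, log2 change) for the 11510 genes tested; each point is a gene, and the dashed line marks equal effects. Genes above the sum (red, 1233) and below it (blue, 1624) lie around 0 on the horizontal axis, with medians of -0.01 and 0.04, and spread along the vertical axis.

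4SU without light changed 1654 genes (14.4%), with 1295 raised (11.3%) and 359 lowered (3.12%; limma, n = 3 per group). Against the same untreated cells the combination changed 6796 (59%), with 4674 raised (40.6%) and 2122 lowered (18.4%). Over all genes tested the median effect was 0.09 for 4SU alone and 0.23 for the combination. Raised and lowered are thus relative to the library totals, and their shares depend on that scaling. After median centring 4SU alone changed 1720 genes and the combination 5995. Of the genes above the sum, 1064 of 1233 (86.3%) passed for neither single treatment, and 971 of these rose with both. Of the genes below, 1285 of 1624 (79.1%) passed for neither, and 1153 of these fell with both. Over all genes tested, 9790 (85.1%) passed for neither, so the called genes stood near that share or under it. The UVA and 4SU comparisons share the untreated libraries. The count of 4SU genes depends on single libraries. Leaving out 4SU replicate 1 gave 726 and leaving out 4SU replicate 2 gave 772, whereas leaving out 4SU replicate 3 gave 2050. Leaving out untreated replicate 2 gave 872, and untreated replicate 3 gave 869.

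A smaller part of the called genes passed for 4SU alone. Of the genes below the sum, 166 (10.2%) were raised by it, with a median effect of 0.44. That share is near the 11.3% raised over all genes tested. After light 120 of them no longer passed against untreated cells, 28 were still higher and 18 lower. Their median density was 28.5 RPKM untreated, 39.7 RPKM with 4SU, 31.4 RPKM with UVA and 29 RPKM with both. A further 171 genes below the sum (10.5%, beside 3.12% over all genes tested) were lowered by 4SU alone. All 171 were lower with both than in untreated cells, a direction favoured by 2 negative terms and a median UVA effect of -0.02. Their median density was 65.6 RPKM untreated, 49 RPKM with 4SU, 63.1 RPKM with UVA and 28.1 RPKM with both. These genes had longer transcripts (median 4180 nt) than the 166 raised by 4SU (2550 nt), a difference given without a test. Above the sum, 57 genes (4.62%) were lowered by 4SU alone, of which 31 were higher with both than in untreated cells. Another 68 (5.52%) were raised by 4SU alone, and all of them were higher with both. The choice of genes favours that direction, since 2 terms were positive and the median UVA effect was 0.08. The 4SU libraries chose these genes and also enter their interaction, with the opposite sign. These counts therefore describe the called genes and support nothing further.

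Transcript length differed between the 2 sides, with wide overlap. The 10th to 90th percentiles were 584 to 4330 nt above the sum and 1700 to 7270 nt below it. The median transcript was 1770 nt above the sum and 3440 nt below it, and 2590 nt among the genes not called. For departures of at least 2-fold the medians were 1730 nt above and 4770 nt below. Lengths were recovered from the RPKM values and can come out too short for genes with few reads. Among the 234 genes at least 2-fold above, 31 averaged under 10 reads per library. When the genes tested were divided into 5 classes of nearly equal size by length, the shortest class (42 to 1459 nt) held 97 of the 234 genes at least 2-fold above and 10 of the 182 at least 2-fold below. The longest class (4672 to 28227 nt) held 14 and 92. The share of genes above the sum was 21.7%, 11.9%, 8.98%, 6.74% and 4.17% from the shortest to the longest class, beside 10.7% over all genes. The share below it was 4.3%, 10.9%, 15.1%, 19.9% and 20.3%, beside 14.1%. The median effect of UVA alone was 0.05, 0.06, 0.05, 0.05 and 0.04 over the 5 classes, and that of 4SU alone was 0.08, 0.1, 0.11, 0.09 and 0.07. The UVA effect in cells carrying 4SU went from 0.27, 0.13 and 0.05 in the shorter classes to 0.01 and -0.02 in the longer ones. Length was not used by the interaction, but it does enter RPKM as a constant for each gene, which cancels in a difference between libraries except through the added 0.5.

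To read the relation with length within classes of density, genes were also divided into 5 classes by mean log2 density over the 12 libraries. That mean includes the 4SU+UVA libraries, so a large departure can move a gene to another class. Density still differed within the densest class. Mean RPKM there ran from 39.7 to 11200 for the shortest genes and from 39.9 to 487 for the longest. Length and density are therefore not fully separated in that class. Among transcripts of the densest class the median interaction was 0.18, -0.12, -0.26, -0.48 and -0.64 from the shortest to the longest. In the sparsest class it was 0.44, 0.26, 0.21, 0.2 and 0.15. The sparsest class is shaped by the filter, since 316 of its 2302 genes reached 1 RPKM in 3 libraries only with the help of 4SU+UVA libraries. Of these 316, 38 were called above the sum and 0 below. Its positive medians are therefore partly selected and are given as a description.

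The 109 genes that were both longest and densest had 81 below the sum and 5 above, and the 979 that were both shortest and densest had 320 above and 63 below. 4SU alone also followed length among the densest genes, with medians of 0.04, 0.01, -0.03, -0.08 and -0.12 from the shortest to the longest. The precision differs between these cells, since the median standard error was 0.11 in the densest class and 0.34 in the sparsest, and the added 0.5 and the filter act on sparse genes, so neither counts of calls nor medians are comparable along density. With density taken from the 9 libraries without the combined treatment, the median was -0.69 for the longest and densest genes, of which 99 of 126 lay below, and 0.17 for the shortest and densest, of which 306 of 952 lay above. Median centring and quantile normalisation gave -0.6 and -0.59 for the longest and densest genes and 0.21 and 0.16 for the shortest and densest.

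Library by library, the longest and densest genes showed the same shape as the single genes above. Relative to the mean of the untreated libraries, the median log2 difference over these 109 genes was 0, 0.02 and -0.01 in the UVA libraries and -0.15, -0.14 and -0.06 in the 4SU libraries. In the 4SU+UVA libraries it was -0.74, -0.82 and -0.8. The median of all genes tested was 0.05 in each UVA library, 0.14, 0.09 and 0.06 with 4SU, and 0.23 in each 4SU+UVA library. For the 324 shortest and sparsest genes it was 0.12, 0.14 and 0.04 with UVA, 0.25, 0.19 and 0.07 with 4SU, and 0.72, 0.71 and 0.7 with 4SU+UVA. Of these 324 genes, 68 passed the filter only with the help of 4SU+UVA libraries, so their level there is partly selected. In each of these sets the 3 combined libraries lay close together, whereas 4SU replicate 3 was nearest to the untreated level among the 4SU libraries.

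**Figure D4:**
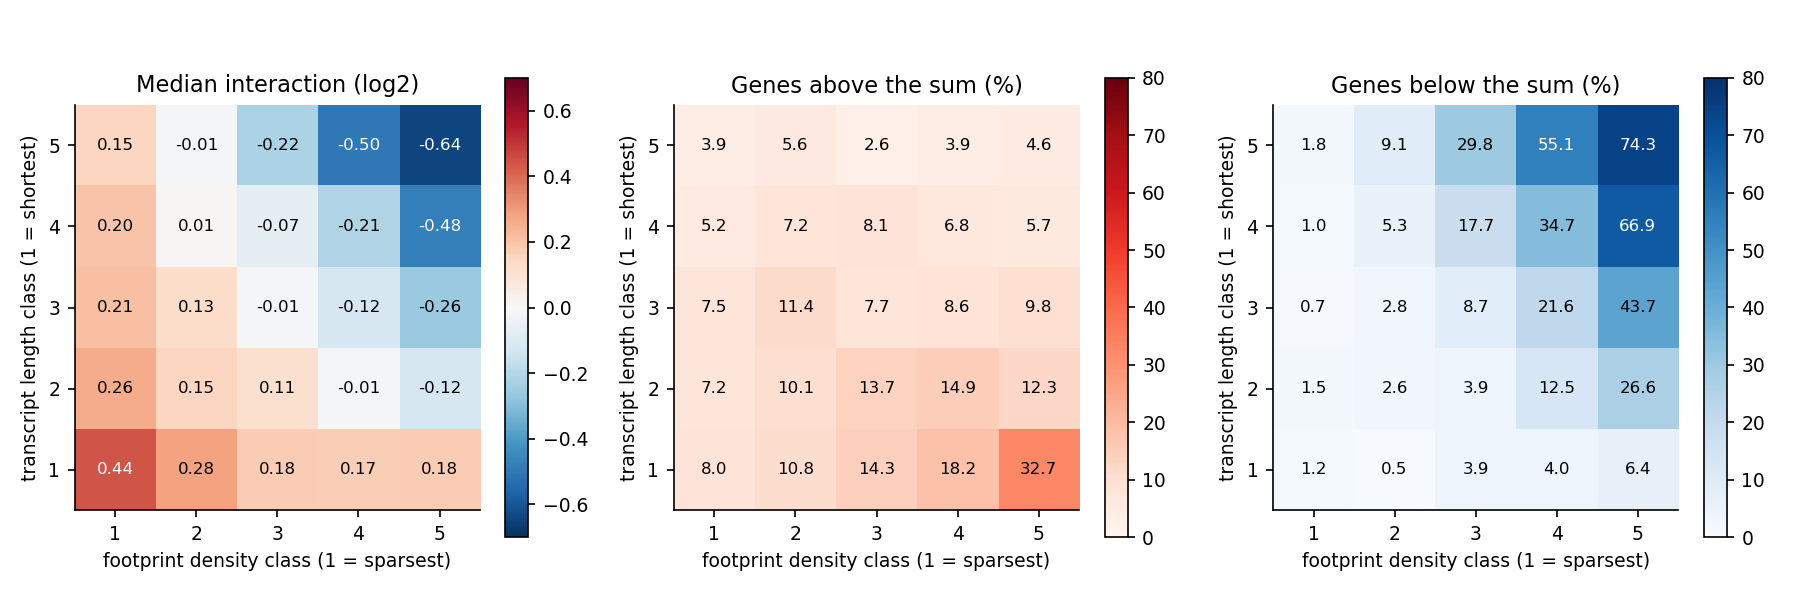
Interaction in 25 classes of genes, by transcript length (vertical, 1 = shortest) and mean footprint density (horizontal, 1 = sparsest); the panels give the median interaction (log2), the percentage of genes above the sum and the percentage below it. Within the densest column the median goes from 0.18 for the shortest genes to -0.64 for the longest, the share above the sum from 32.7% to 4.59% and the share below from 6.44% to 74.3%. Columns differ in precision and are not to be compared by their shares.

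Read depth bears differently on the 2 sides. Genes at least 2-fold above the sum were sparsely read, with a median of 30.9 reads per library, and 31 of the 234 averaged under 10. Those at least 2-fold below had a median of 634 reads, and none of the 182 averaged under 10. Large excesses at the sparsest genes therefore rest on few reads, and the added 0.5 draws their log change toward 0. Reads amplified by PCR without molecular identifiers are not independent molecules, so counting error is a lower limit on their noise. Every library is scaled to the same total. A place above or below the sum is thus relative to all other genes of the same libraries, and the number of footprints per cell was not measured.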

How the data were processed

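Ribosome footprints were measured in 12 libraries, and each library's group and replicate number came from its treatment label and title. The authors deposited 1 table of RPKM values for 19580 genes, with 1 transcript per gene. The submitters' processing notes name the aligner STAR 2.7.10a and the build hg38. How reads were counted, and on which annotation, is not given in the sources used here. Per the labels' protocols, footprints of 15 to 70 nt were kept.

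Reads, transcript lengths and library totals were worked out from the steps of the RPKM values, by taking the smallest whole length that made a gene's values whole reads within 1e-06. This gave a length for 15937 of 15937 genes with a read, but lengths of genes with few reads can come out too short. Tests used limma 3.58.1 (lmFit and trended eBayes, R 4.3.3) on log2(RPKM + 0.5) of the 11510 genes with RPKM of at least 1 in at least 3 libraries. The model had 4 group means and 8 residual degrees of freedom. All p-values are two-sided, and Benjamini-Hochberg adjustment ran over all genes tested in a contrast. Length recovery and fit were tested on simulated data. The fit called 22.7% of simulated 1.5-fold interactions and 67.2% of 2-fold ones, beside 0.071% of unchanged genes. Few genes were changed in that simulation, so the shares can differ in these data. A gene not called can therefore still depart from the sum.

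Named genes are the 2 highest and 2 lowest interactions with adjusted p under 0.05 and a mean of at least 5 RPKM (1019 genes above and 1559 below were eligible). The rule had asked for 12 on each side with symbols, and for gene lists by function, which could not be matched. Genes, classes and tests were chosen with earlier results of these data known. Alternatives were pseudocounts of 0.1 and 1, no filter or RPKM of at least 5, median centring, quantile normalisation, no variance trend, the replicate number as a block, and leaving out each library. Added after seeing the data were limma's voom on the recovered reads, all libraries thinned to 1899854 reads, and density classes by mean RPKM or by the 9 libraries without the combined treatment.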

Additional observations from a re-analysis of the deposited data

Results flagged for a closer look

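The UVA effect differed between cells with and without 4SU by the interaction term at 1233 genes above and 1624 below the sum, which is the comparison described above. The 4 named genes are among them. The interaction of ENSG00000120738.8 was 5.74 and that of ENSG00000177606.8 was 4.97, each with 3 of 3 combined libraries above the other 9. The interaction of ENSG00000153201.16 was -1.8 and that of ENSG00000111530.13 was -1.77, each with 3 of 3 combined libraries below the other 9.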

How the results depend on the processing

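The interaction count of 2857 genes moved by less than 1.5 times under each of the 22 alternatives and lay between 2335 and 2794 when single libraries were left out. Of the called genes, 773 above and 1185 below passed in every leave-one-out fit, and 528 and 1019 in every alternative that tests all the genes. Called genes with the other sign numbered 15 under quantile normalisation, 1 after thinning and 0 under each of the others. The 4 named genes passed in the same direction in all 22. Thinning all libraries to 1899854 reads called 774 genes above the sum, 689 of them among the 1233, and 685 of the form in which UVA passes with 4SU only. Genes above the sum with opposite UVA effects numbered 39, against 16 without the variance trend and 10 under quantile normalisation. The median interaction of the longest class was -0.08, and it was -0.21 with RPKM of at least 5 required and -0.16 under quantile normalisation. UVA without 4SU called 75 genes, against 45 with no filter, 27 without the variance trend and 42 under quantile normalisation. 4SU without UVA called 1654, against 857 after thinning and 726 to 2050 when single libraries were left out. The cause of these moves was not tested. With the replicate number as a block, 1192 genes lay above and 1598 below the sum. The 18 same-numbered pairs of libraries from different groups had deviations that correlated at -0.0457 to 0.0679 (median 0.005). The 36 pairs with other numbers correlated at -0.0678 to 0.0619 (median -0.006). Correlations this small, with 3 libraries per group, cannot tell whether same-numbered samples were handled together. The lists by function could not be run under any setting.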

Other observations

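Some genes were read in the libraries of 1 group only. After 4SU+UVA, 11 genes had a read in all 3 libraries and none in the other 9, with 3 to 10 reads each over the group. The same count was 2 for untreated cells, 2 for 4SU and 1 for UVA, with at most 6 reads each. The opposite, a read in all 9 other libraries and none in the 3 of the group, was met by 2 genes for 4SU+UVA, 1 for untreated cells, 1 for UVA and 0 for 4SU. The 4SU+UVA group had the widest range of depth, and read numbers this low do not set a fold.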
